A study of Mus musculus with 6 samples.

Results

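Aminoacyl-tRNA synthetases are the enzymes that attach each amino acid to its transfer RNA. The 35 genes described here were taken by symbol from a table of 22481 genes, 20 for enzymes that work mainly in the cytosol (Gars and Kars also supply mitochondria) and 15 for mitochondrial ones, and all 35 were listed. RNA had been sequenced from lung B cells of C57BL/6 mice at 3 months of age, with 3 wild type (WT) and 3 5xFAD samples. The 5xFAD mouse carries human transgenes with mutations of familial Alzheimer's disease, driven by the neuronal Thy1 promoter, and WT mice serve as controls. The B cells had been enriched with magnetic beads and the libraries made from total RNA after removal of ribosomal RNA. The labels do not say that each sample was a separate animal, so the tests describe the spread among these samples, which may be partly technical.

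Cytosolic synthetases charge the transfer RNAs used by ribosomes in the cytoplasm, and several of them sit in a multi-synthetase complex held together by scaffold proteins. Mitochondria translate their own few messenger RNAs with a separate set of transfer RNAs, charged by enzymes that are encoded in the nucleus and imported. Synthetases fall into class I and class II by the fold of their catalytic domain, and many cytosolic synthetase genes are targets of ATF4, the transcription factor of the amino acid response.

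The libraries were shallow, and Lars2 took a large share of each. Estimated counts summed to between 628581 and 782297 per library with Lars2, and to between 341461 and 466345 without it. On average 9160 ± 1226 genes of a WT library and 11144 ± 645 of a 5xFAD library reached 0.5 counts (SD, n = 3 each). The 34 other synthetase genes together held 497 to 797 counts per library, between 0.128% and 0.187% of the counts that were not Lars2. B cell markers were present in all 6 libraries, but so were markers of other lung cells. The summed FPKM (fragments scaled for transcript length and library size) of 8 B cell markers was 278 ± 33.7 in WT and 508 ± 145 in 5xFAD, and that of 8 endothelial markers was 408 ± 55.6 and 312 ± 43.8 (SD, n = 3 each). The log2 ratio of B cell to endothelial sums was -0.18, -0.88 and -0.59 in WT and 0.65, 0.96 and 0.40 in 5xFAD, so the groups did not overlap. In such bulk samples fewer cells of a type and less RNA per cell cannot be told apart.

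Lars2, which encodes the mitochondrial leucyl-tRNA synthetase, was the most abundant gene of the whole table in all 6 libraries. Its FPKM was 35052, 39894 and 37778 in WT replicates 1, 2 and 3, and 34167, 41519 and 37216 in 5xFAD replicates 1, 2 and 3. The genotypes overlapped fully, with means of 37574 ± 2427 in WT and 37634 ± 3694 in 5xFAD (SD, n = 3 each). Its estimated counts were 266498, 303629 and 287120 in WT and 259834, 315952 and 283189 in 5xFAD. These were 39.8%, 43.8% and 45.7% of all counts in WT and 37.5%, 40.4% and 40.1% in 5xFAD. The 95% Wilson interval (counting error only) was 37.4 to 37.6% for the lowest share and 45.6 to 45.8% for the highest. The log2 fold change of 5xFAD over WT was -0.13 (SE 0.13; adjusted p = 0.775 in edgeR's quasi-likelihood test with Benjamini-Hochberg adjustment). That fold change is relative to library sizes, and the mean FPKM and mean counts were slightly higher in 5xFAD, so the sign depends on the scale and the difference is about the size of its error.

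The level of Lars2 lay far outside the range of its family. Vars, the cytosolic valyl-tRNA synthetase gene, was the next highest synthetase gene in 5 libraries, and Qars, that for glutamine, in WT replicate 3. Lars2 exceeded that next gene by 302-fold, 882-fold and 799-fold in the WT libraries and by 1093-fold, 753-fold and 1513-fold in the 5xFAD libraries, a mean log2 ratio of 9.65 ± 0.78 in FPKM (SD, n = 6). It exceeded the sum of all 34 other synthetase genes by 118-fold to 239-fold. The next gene of the whole table was mitochondrially encoded, mt-Co1 in 5 libraries and mt-Nd2 in 5xFAD replicate 2, and Lars2 was 12.7-fold to 36.3-fold above it. Among the 34 others, mean FPKM over the 6 libraries ran from 0.121 for Aars2 to 52.0 for Vars, with a median of 3.89.

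**Figure D1:**
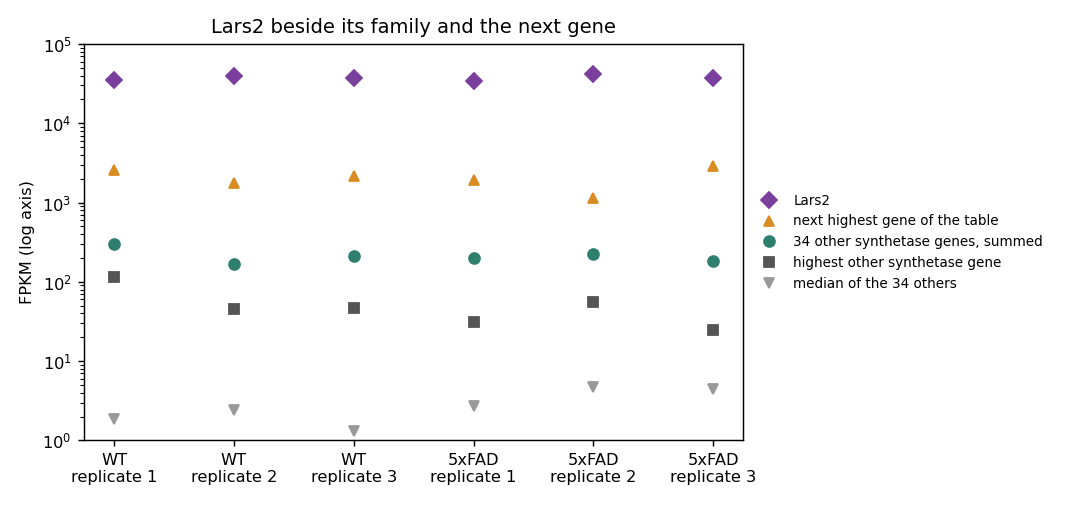
FPKM (log axis) in each of the 6 libraries for Lars2, the next highest gene of the table, the sum of the 34 other synthetase genes, the highest of these and their median. Lars2 sits between 34167 and 41519 in every library, at least 118-fold above the sum of the others.

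Lars2 was also steadier across libraries than its relatives. Its coefficient of variation over the 6 FPKM values was 7.43%, against a median of 88.9% for the other synthetase genes and 78.2% for all 9651 tested genes. Genes with few counts vary more by counting alone, so this difference was not separated from that in level. The cytosolic leucyl enzyme gene, Lars, was at 1.96, 4.38 and 0.275 FPKM in WT against 11.6, 4.50 and 4.61 in 5xFAD. All 3 Lars values of 5xFAD lay above those of WT, but the log2 fold change of 1.64 (SE 0.83) did not pass the test (edgeR adjusted p = 0.441).

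The Lars2 locus (ENSMUSG00000035202) spans chr9:123366940-123462664 of GRCm38 on the plus strand and was listed with no second gene. Dividing counts by FPKM gives the transcript length with which the authors' software scaled a gene, once calibrated on genes with a single annotated transcript. For Lars2 this implied length was 3922 to 3957 bases in the 6 libraries. The longest protein-coding Lars2 transcript in GENCODE M21 has 3894 bases, so the FPKM values of Lars2 were scaled with a length close to that of the full transcript. The last of its 21 exons spans chr9:123461499-123462664, and 986 bases of it follow the stop codon as 3′ UTR.

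Part of that UTR is shared with other transcribed loci. A search of the transcript against all GENCODE M21 transcripts found 72 bases that match Gm15564, an antisense non-coding gene on chromosome 16, at 98.6% identity with 1 mismatch. They lie at chr9:123462048-123462119, after the stop codon. Stretches of 97 bases (94.8% identity) and 50 bases (96.0% identity) in the same UTR match AA474408, a gene on chromosome 7. A 30-base piece of the Gm15564 match is shown because it holds the one mismatch, in capitals, written A16T from Lars2 to Gm15564 and counted from the first base printed. The Lars2 piece is chr9:123462085-123462114 on the plus strand and the Gm15564 piece is chr16:35981730-35981759 on the minus strand, both of GRCm38.
Lars2: ggaacgtgagctgggAttagaccgtcgtga
Gm15564: ggaacgtgagctgggTttagaccgtcgtga

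As background, a stretch resembling large-subunit ribosomal RNA is known in the mouse Lars2 UTR. No ribosomal RNA sequence was compared here, and gene totals do not show where on a transcript reads fall. The part of the shared stretch in the Lars2 level was not tested. AA474408, which the deposited table holds, was at 20.8, 3.86 and 4.32 FPKM in WT against 17.0, 11.5 and 6.20 in 5xFAD. Lars2 was 1682-fold to 10339-fold above AA474408. Of the 3845 windows of 50 bases in the Lars2 transcript, 3 were identical to a window of another gene, Gm15564, and 0 to one of another synthetase gene.

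The 20 cytosolic genes formed the better measured group. Their mean FPKM ran from 2.46 for Hars to 52.0 for Vars, with a median of 5.64, and between 18 and 20 of them reached 0.5 counts in a library. Vars (chr17:35000987-35016322) was at 116, 45.2 and 39.7 FPKM in WT against 31.3, 55.1 and 24.6 in 5xFAD, with overlapping groups. Sars, for serine (chr3:108424865-108445209), was at 20.9, 9.15 and 33.9 FPKM in WT against 9.998, 17.1 and 19.5 in 5xFAD. Wars, the tryptophanyl enzyme gene (chr12:108860030-108894174), was at 31.7, 13.4 and 0.761 FPKM in WT against 14.9, 10.9 and 20.8 in 5xFAD. WT replicate 3 was the highest library for Sars and the lowest for Wars, and neither gene separated the genotypes.

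**Figure D2:**
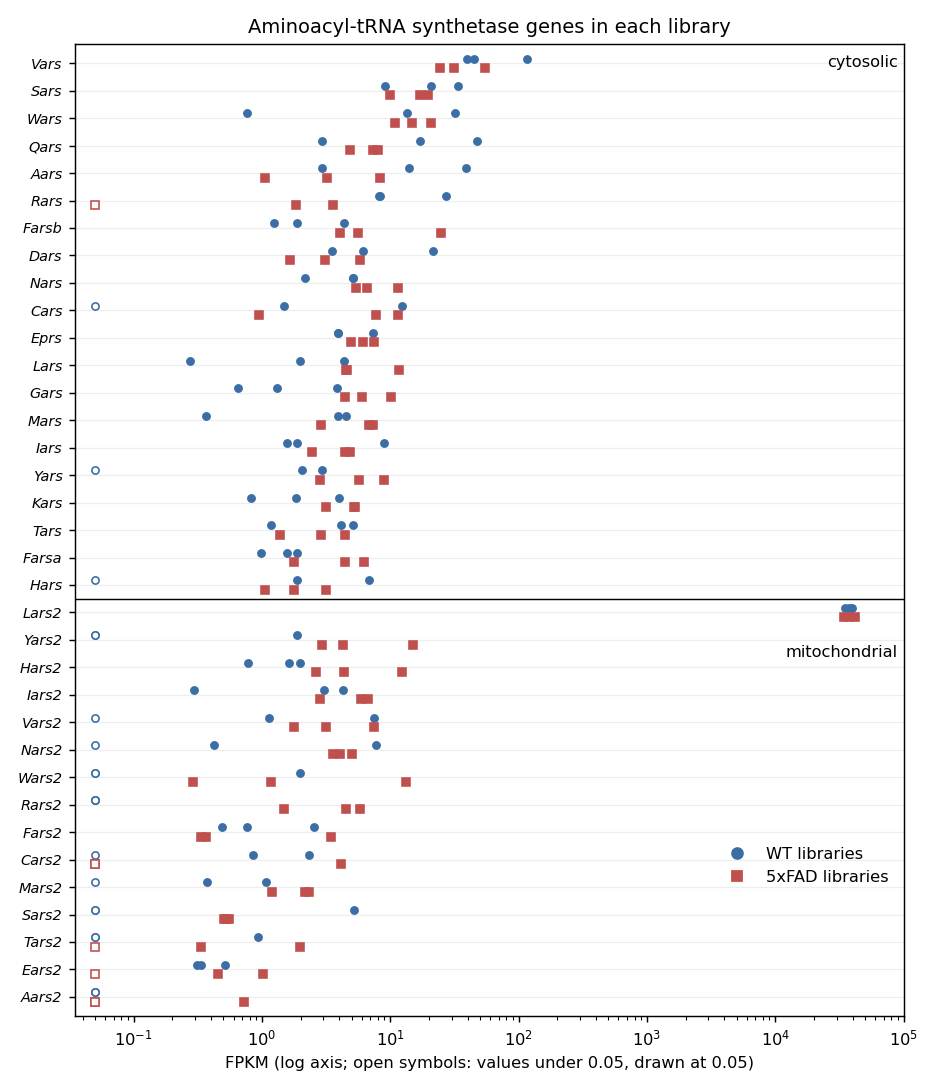
FPKM (log axis) of each of the 35 genes in the 3 WT (circles) and 3 5xFAD (squares) libraries, cytosolic genes above the line and mitochondrial ones below, each ordered by mean. Lars2 stands alone at a mean of 37604 FPKM, while the other mitochondrial genes have means of at most 4.03 and many values near 0.

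The length by which counts were turned into FPKM differed between libraries for many genes, in both compartments. Of the 20 cytosolic genes, all had an implied length in at least 4 libraries. That length stayed within a factor of 1.1 between libraries for 8 of them, and differed by more than 2-fold for 11. Among mitochondrial genes with at least 4 such libraries it differed by 8.18-fold for Nars2, 3.87-fold for Hars2, 3.49-fold for Vars2 and 1.82-fold for Iars2. It stayed within a factor of 1.1 for Lars2 and Mars2. Among those with fewer such libraries the widest were Wars2 at 8.15-fold and Rars2 at 4.66-fold, on 2 libraries each. For Vars the implied length ran from 527 bases in WT replicate 1 to 3073 bases in 5xFAD replicate 3. Those 2 libraries held 118 and 146 Vars counts but 116 and 24.6 FPKM, so the gap in FPKM is not one in reads. Aars, the alanyl enzyme gene, was the widest cytosolic case, its 38.6 FPKM in WT replicate 1 standing for 58.3 counts and its 1.049 FPKM in 5xFAD replicate 1 for 11.97 counts. Eprs, which encodes the joined glutamyl and prolyl enzyme, was among the stable ones, at 4939 to 4984 bases, and held 322 counts in all, rank 3 of the family. The edgeR log2 fold change and the difference of mean log2(FPKM + 1) had opposite signs for 3 tested members, Cars, Hars and Cars2, against 15.7% of all tested genes. These 2 measures also average the libraries differently. Hars was among the genes with a stable length, so an opposite sign need not come from the length.

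**Figure D3:**
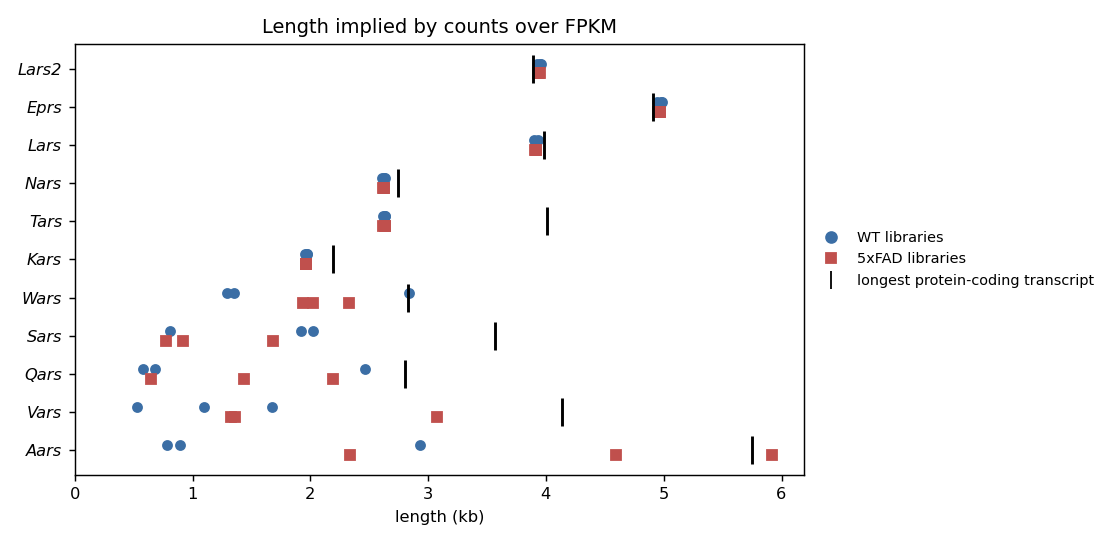
Transcript length implied by counts over FPKM, in kilobases, for 11 synthetase genes in each WT (circles) and 5xFAD (squares) library, with the longest protein-coding GENCODE transcript as a bar. Lars2, Eprs, Lars, Nars, Tars and Kars keep one length in all libraries with at least 3 counts, while Vars runs from 0.527 to 3.07 and Aars from 0.787 to 5.92.

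Mitochondrial genes other than Lars2 were less abundant than cytosolic ones. Their mean FPKM ran from 0.121 for Aars2 to 4.03 for Yars2, with a median of 1.65. Among 15 amino acids with an enzyme of each compartment, the cytosolic gene had the higher mean in 12, and in every library in 5 (alanine, glutamate, serine, threonine and valine). The mitochondrial gene had the higher mean for histidine, leucine and tyrosine. Several pairs were close: Iars2 was above Iars in 5 libraries although its mean was lower, Yars was above Yars2 in 4 libraries although its mean was lower, and Rars2 was above Rars in the 3 5xFAD libraries but in 0 of the WT libraries. By counts, which are not scaled for length, the cytosolic gene was the higher in 11 pairs. Without leucine the median ratio of cytosolic to mitochondrial mean FPKM was 4.43-fold. The leucine pair was reversed by a log2 ratio of -13.01, whereas the histidine and tyrosine pairs stood at -0.69 and -0.11.

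**Figure D4:**
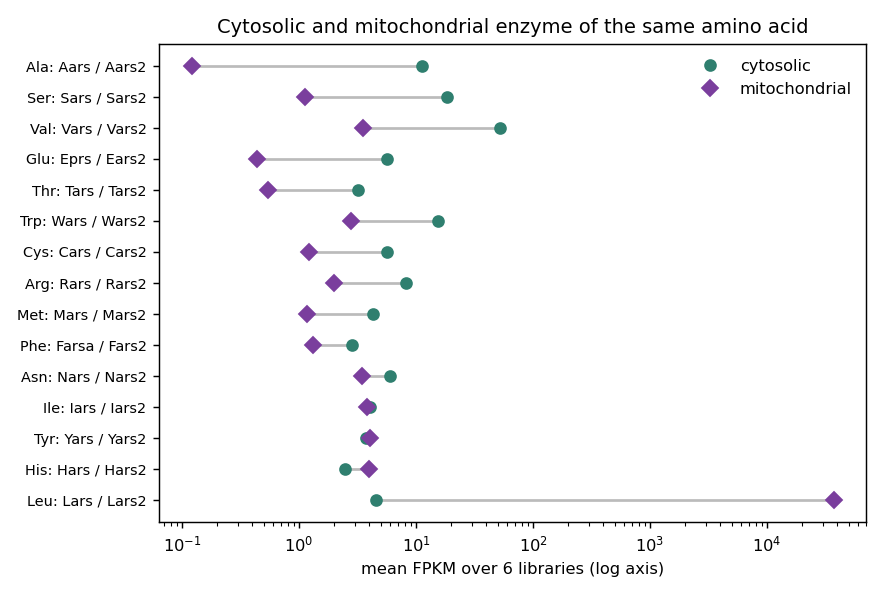
Mean FPKM over the 6 libraries (log axis) of the cytosolic (circles) and mitochondrial (diamonds) gene for each of 15 amino acids, ordered by their ratio. The cytosolic gene is to the right in 12 pairs, and the leucine pair is the only one in which the mitochondrial gene is far to the right, at 37604 against 4.56.

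Summed over genes, the 14 mitochondrial genes other than Lars2 were higher in every 5xFAD library than in any WT library. Their summed FPKM was 18.5, 18.8 and 11.0 in WT and 45.3, 45.1 and 38.1 in 5xFAD, or 16.1 ± 4.44 and 42.9 ± 4.13 (SD, n = 3 each). Single genes made up much of some sums. In 5xFAD the largest values were 15.1 for Yars2 and 13.2 for Wars2 in replicate 1, and 12.4 for Hars2 in replicate 2. In WT the largest in replicates 1, 2 and 3 were Vars2 at 7.51, Nars2 at 7.73 and Sars2 at 5.22. The 13.2 FPKM of Wars2 stood for 13.96 counts (implied length 551 bases), whereas 10.2 counts gave 1.17 FPKM in 5xFAD replicate 2 (4485 bases). Sums without single mitochondrial genes were not tested. The counts of the 14 genes summed to 64.3, 66.3 and 33.3 in WT and to 123, 161 and 122 in 5xFAD. The number of them with at least 0.5 counts was 8 in each WT library and 11, 13 and 12 in 5xFAD. The 20 cytosolic genes differed from this in summed FPKM, at 278, 148 and 200 in WT against 153, 178 and 147 in 5xFAD, which overlap. Their summed counts did not overlap, at 580, 431 and 604 in WT against 640, 637 and 671 in 5xFAD, nor did their median FPKM, at 3.63, 3.93 and 3.89 against 5.26, 5.85 and 4.93. FPKM per count of Lars2 was 0.1314 to 0.1316 in the 6 libraries, so counts and FPKM were on one library scale. On it, count totals of all genes without Lars2 were also higher in 5xFAD, at 341461 to 402532 in WT and 423160 to 466345 in 5xFAD.

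The cytosolic sum was therefore 15.0, 7.86 and 18.2 times the mitochondrial sum in WT and 3.38, 3.94 and 3.85 times in 5xFAD. On the log2 scale the ratio was lower in 5xFAD by 1.79 (difference -1.79, from 3.69 ± 0.63 in WT and 1.89 ± 0.12 in 5xFAD). With counts in place of FPKM the difference was -1.08. These sums are descriptions with no test. The 5xFAD libraries also had more genes detected over the whole table and a higher B cell to endothelial ratio, and the median FPKM of tested genes was 4.28, 4.34 and 3.02 in WT and 3.66, 5.15 and 4.79 in 5xFAD. The part of these differences in the mitochondrial sum was not tested.

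**Figure D5:**
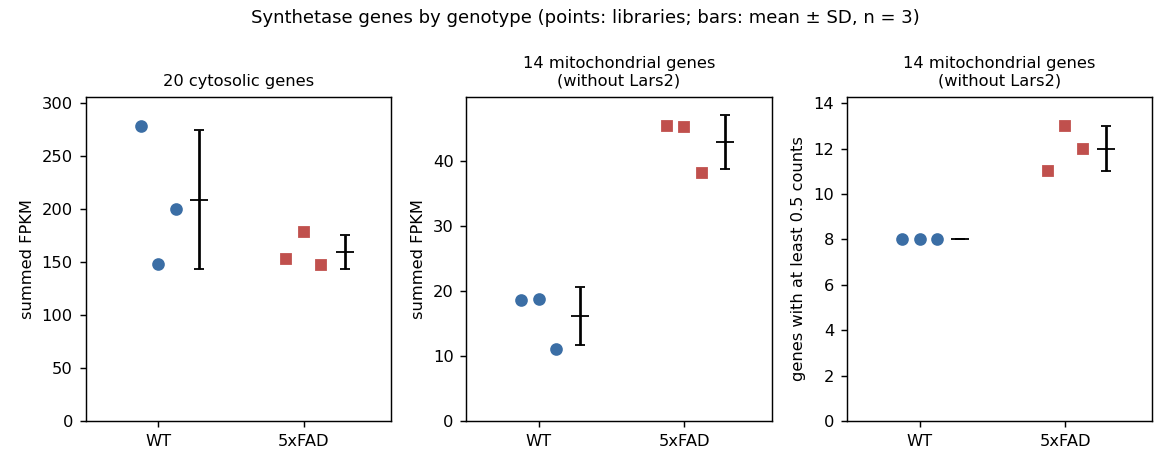
Summed FPKM of the 20 cytosolic genes (left), of the 14 mitochondrial genes without Lars2 (middle), and the number of these 14 with at least 0.5 counts (right), by genotype; points are libraries and bars the mean ± SD (n = 3). The mitochondrial sums are 11.0 to 18.8 in WT and 38.1 to 45.3 in 5xFAD, while the cytosolic sums overlap in FPKM. Summed cytosolic counts do not overlap, but neither do the count totals of all genes without Lars2, which are also higher in 5xFAD.

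No single synthetase gene differed between genotypes past the adjusted threshold. All 20 cytosolic and 12 of 15 mitochondrial genes passed the filter of a mean of at least 1 FPKM (Aars2, Ears2 and Tars2 did not), and 0 of these 32 were called by edgeR at an adjusted p under 0.05, against 0.114% of the 9651 tested genes. At an unadjusted p under 0.05, 3 were higher in 5xFAD (Yars2, Rars2 and Farsb), against 8.46% of tested genes, and 0 were lower, against 3.55%. These shares are close to those of the table. Yars2 and Rars2 had WT means of 0.63 and 0 FPKM, so they passed the filter only through their 5xFAD values. DESeq2 called 1 of the genes, Yars2 (adjusted p = 0.0474), against 0.728% of the 8522 genes to which it gave an adjusted p, and limma on log2(FPKM + 1) called 0.

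Yars2, the mitochondrial tyrosyl enzyme gene (chr16:16302965-16309640), was at 1.89, 0 and 0 FPKM in WT against 15.1, 2.94 and 4.26 in 5xFAD. Its counts were 0.989, 0 and 0 in WT against 40.9, 13.2 and 16.5 in 5xFAD, with no overlap. The difference did not pass the test across all genes (edgeR adjusted p = 0.216). No read was assigned in WT to Rars2, the mitochondrial arginyl enzyme gene (chr4:34614957-34660167), listed at 0 in each of the 3 libraries, while 5xFAD libraries held 1.49, 5.80 and 4.54 FPKM. The Rars2 counts of 2.99, 3.78 and 13.8 in 5xFAD stand against the 3 counts that a count of 0 allows in each WT library, with 2 of the values near that limit, so no fold is given. Rars2 did not pass the test either (edgeR adjusted p = 0.316). Farsb, the beta subunit of the cytosolic phenylalanyl enzyme, was at 4.33, 1.24 and 1.88 FPKM in WT against 24.9, 5.61 and 4.08 in 5xFAD. The lowest 5xFAD value of Farsb lay below the highest WT value (log2 fold change 2.30, SE 0.91; edgeR adjusted p = 0.321). Without 5xFAD replicate 1 the Farsb log2 fold change was 0.82, and its locus was listed with 1 other gene, Sgpp2 being annotated on the opposite strand.

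Without WT replicate 3, the number of genes higher at an unadjusted p under 0.05 was 6 in place of 3, against 8.19% of all tested genes in the same fit. That library had the fewest detected genes, 7929, and the lowest mitochondrial sum.

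In FPKM the genotypes did not overlap for 9 of the 35 genes. In 8 of them 5xFAD was higher (Nars, Lars, Gars, Yars2, Hars2, Rars2, Mars2 and Aars2), against 13.0% of tested genes (Aars2 was not among these), and in 1, Rars, it was lower, against 4.42%. Nars, for asparagine, was at 2.15, 5.15 and 5.14 FPKM in WT against 11.4, 6.53 and 5.43 in 5xFAD. Gars, the glycyl enzyme gene, was at 0.649, 1.32 and 3.87 in WT against 10.04, 6.00 and 4.41 in 5xFAD. For both, the lowest 5xFAD library was only just above the highest WT library, and the log2 fold changes of 0.82 (SE 0.78) and 1.64 (SE 1.03) did not pass the test (edgeR adjusted p = 0.750 and 0.567).

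The mitochondrial genes in this set had few counts. Hars2, for histidine, was at 1.98, 0.775 and 1.63 FPKM in WT against 2.63, 12.4 and 4.36 in 5xFAD, but its counts overlapped. Mars2, for methionine, was at 1.06, 0 and 0.374 in WT against 2.15, 1.19 and 2.30 in 5xFAD. Aars2 was at 0 in WT and had more than 3 counts in 5xFAD replicate 2 alone (4.72 counts, 0.723 FPKM), so its lack of overlap rests on near-zero estimates. Iars2, for isoleucine, rank 3 among the other mitochondrial genes by level, was at 4.25, 3.06 and 0.297 in WT against 2.84, 6.64 and 5.92 in 5xFAD, which overlap.

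Rars, the cytosolic arginyl enzyme gene (chr11:35808381-35834506), went the other way in FPKM. It was at 27.2, 8.21 and 8.35 FPKM in WT against 0, 3.54 and 1.83 in 5xFAD. Its counts of 56.3, 15.1 and 10.4 in WT against 0, 14.2 and 7.34 in 5xFAD overlap (log2 fold change -2.11, SE 1.21; edgeR adjusted p = 0.518). By counts 9 of the 35 genes were higher in 5xFAD without overlap, against 14.3% of tested genes, and 0 were lower, against 3.98%. The 9 include Aars2, which was not tested and rests on near-zero estimates.

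The share of tested members with a higher value in 5xFAD was near that of the table. The log2 fold change was above 0 for 20 of the 32, against 54.1% of tested genes, and the difference of log2(FPKM + 1) for 21 of the 32, against 60.2%. The median edgeR log2 fold change was 0.28 over the 20 cytosolic and 0.90 over the 12 tested mitochondrial genes, against 0.11 over all tested genes. Among the 12, Rars2, Yars2, Wars2 and Mars2 averaged under 1 FPKM in WT, so they passed the filter only through their 5xFAD values. Their log2 fold changes of 5.77, 5.71, 3.399 and 1.898 enter the median of 0.90. Sars2 passed only through its WT values and enters at -1.84. With a minimum of 5 FPKM the cytosolic and mitochondrial medians were -0.52 and -0.19, the latter from Lars2 alone. The mitochondrial median turned on single libraries, from 0.52 without WT replicate 3 to 1.40 without WT replicate 1, and the cytosolic one was 0.014 without WT replicate 2. By catalytic class, median mean FPKM was 4.03 in the 19 class I genes and 3.43 in the 16 class II genes. The 8 members of the multi-synthetase complex had a median of 5.08 FPKM.

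Sequence shared within the family was confined to 1 pair among the transcripts compared. Hars and Hars2, neighbours transcribed from opposite strands of one listed locus, share 146 windows of 50 bases, so their counts are uncertain. Another gene shares 36.6% of the windows of Iars2 (Rab3gap2, opposite strand), 22.4% of Aars (Exosc6, same strand), 17.8% of Cars2 and 10.1% of Farsb. In all, 8 members were listed in a locus with a second gene. How the authors' software assigned reads in such a locus was not stated.

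ATF4 binds, with partner proteins, elements of the form TGATGNAA. RefSeq promoters on GRCm38.p6 were matched for 27 members, and the motif was searched on both strands in the 250 bases before each start. It occurred in 3 of 13 cytosolic genes (Aars, Gars and Tars), 0 of 14 mitochondrial genes and 3.40% of 32536 promoters. The 60-base stretches around it are shown for the 3 genes that hold it, with the motif, the element they have in common, in capitals on the strand opposite to its written form, at chr8:111033704-111033763 (plus strand) for Aars, chr6:55037941-55038000 (plus strand) for Gars and chr15:11399659-11399718 (minus strand) for Tars.
Aars: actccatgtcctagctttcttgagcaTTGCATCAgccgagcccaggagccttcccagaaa
Gars: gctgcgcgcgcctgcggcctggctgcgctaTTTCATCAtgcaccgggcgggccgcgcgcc
Tars: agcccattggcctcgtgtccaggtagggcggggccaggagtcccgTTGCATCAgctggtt

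The 3 genes with the motif did not move together, with log2 fold changes of -0.48 (SE 0.81) for Aars, 1.64 (SE 1.03) for Gars and -0.46 (SE 1.08) for Tars, and none passed the test. A match is a description of letters and shows no binding. Of 21 genes of the amino acid response, 14 were tested and 0 were called by edgeR at an adjusted p under 0.05. At an unadjusted p under 0.05, Mthfd2, a mitochondrial folate enzyme, and Eif4ebp1, an inhibitor of translation initiation, were higher and Nupr1, a stress-induced nuclear protein, was lower. Of all tested genes, 8.46% were higher and 3.55% lower at that level. Mthfd2 was listed at 0 throughout WT, while its FPKM in 5xFAD was 3.05, 2.15 and 8.38. Nupr1 was at 17.5, 10.8 and 1.498 in WT against 0.716, 2.03 and 2.63 in 5xFAD, which overlap. Atf4 itself was at 18.2, 18.1 and 25.9 FPKM in WT against 19.2, 12.3 and 23.4 in 5xFAD (log2 fold change -0.28, SE 0.52), also overlapping. The list's median log2 fold change was -0.18.

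Genes that work with the synthetases, or after them in translation, showed no call either. The scaffold genes Aimp1 and Aimp2 were tested and not called, at 13.4, 1.51 and 0 FPKM in WT and 1.003, 6.17 and 4.601 in 5xFAD for Aimp1, and Eef1e1 was under the filter. Of 11 tested genes that mature mitochondrial transfer RNAs or complete their charging, 0 were called, and at an unadjusted p under 0.05 only Gtpbp3, which modifies their wobble base, was lower (log2 fold change -2.29, SE 0.93; edgeR adjusted p = 0.331). Of 8 tested mitochondrial translation factor genes, Gfm2, a ribosome recycling factor, was higher at an unadjusted p under 0.05 (edgeR adjusted p = 0.337). Gfm2 was at 2.65, 0.888 and 7.68 FPKM in WT against 19.1, 8.53 and 10.3 in 5xFAD, without overlap, but its counts overlapped. Mrrf, another recycling factor, was lower at an unadjusted p under 0.05 (0, 5.97 and 0.413 FPKM in WT and 0 in the 3 5xFAD libraries). At that level 8.46% of all tested genes were higher and 3.55% lower. Of 12 cytosolic elongation and initiation factor genes none was called and none had an unadjusted p under 0.05 in edgeR, with Eef1a1 at 619 to 750 FPKM in WT and 730 to 805 in 5xFAD. Of further synthetase genes, Pars2 was tested and its groups overlapped, and Tarsl2 was under the filter.

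Markers of cell types were read beside these genes. Of 8 B cell markers, 5 were higher in 5xFAD at an unadjusted p under 0.05 (Ms4a1, Pax5, Bank1 and Ebf1 among them) and 0 were called by edgeR. Of 8 endothelial markers 3 were lower at that level (Vwf, Tek and Tmem100) and 0 were called. Over all tested genes, 8.46% were higher and 3.55% lower at that level. Summed FPKM of myeloid markers ranged from 197 to 343 in WT and from 183 to 474 in 5xFAD, of neutrophil markers from 181 to 498 and from 228 to 519, of epithelial markers from 151 to 346 and from 132 to 205, of fibroblast markers from 17.4 to 25.9 and from 19.8 to 113, and of T cell markers from 0.396 to 4.54 and from 2.66 to 8.15. Epcam was at 0 in 5 libraries and Cd3d in 4. Their part in the levels of the synthetase genes was not tested.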

How the data were processed

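The deposited table held FPKM values and estimated counts per gene and sample, per the file headers. The submitters' processing notes list HISAT2 2.0.4, cutadapt 1.9.3, Cuffdiff and Cufflinks and give the builds as GRCm38 and mm10, with no role for any; no annotation release was named. FPKM values made by the authors were not rescaled. Low counts were mostly multiples of a unit particular to the library, such as 0.989 in WT replicate 1 and 0.917 in 5xFAD replicate 3. The estimated counts thus already carried a scale factor for each library. The authors' estimated counts, which need not be whole, were rounded to integers for edgeR 4.0.16 (genotype as the only term, trended dispersion, TMM factors, quasi-likelihood test) in R 4.3.3. The 9651 genes whose FPKM averaged 1 or more were tested, with Benjamini-Hochberg adjustment and a threshold of 0.05. Standard errors come from the log2 fold change and the F statistic, as |log2 fold change| / √F. The 22564 rows were summed by symbol to 22481 genes.

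No 2 libraries agreed within sampling noise: chi-square over its degrees of freedom was 6.23 to 20.6 between pairs. Alternatives were DESeq2 1.42.0, limma 3.58.1 on log2(FPKM + 1) and log2(FPKM + 0.1), upper-quartile or no TMM factors, other filters, a replicate term, leaving out Lars2, and leaving out each library. Implied lengths used genes with a single transcript of at least 500 bases and 20 counts, and were computed for values of at least 3 counts; matches were found with blastn 2.17.0 and identical windows of 50 bases in GENCODE M21.

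Values are given in every library for Lars2, members called, at an unadjusted p under 0.05 or without overlap in FPKM, and the 3 most abundant of each compartment; of other lists, for members at an unadjusted p under 0.05 and some of the most abundant. Values of a few list genes that meet this rule are left out of the text. The members and lists were chosen with earlier results of these data known. Members had a median of 97.4 counts over the 6 libraries together, which limits the precision of each value.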

Additional observations from a re-analysis of the deposited data

How the results depend on the processing

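The Lars2 difference between genotypes kept its sign and did not pass the adjusted threshold under the 14 alternatives run, with adjusted p from 0.390 to 0.9999; with upper-quartile factors it was -0.20 and passed an unadjusted threshold of 0.05; leaving out 1 library gave -0.23 to -0.14, and limma on FPKM gave -0.00031. The log2 ratio of Lars2 to the next synthetase gene was 11.2 with counts and 9.46 to 9.93 without single libraries. The number of members called was 1 with DESeq2 and 0 to 0 without single libraries; adjusted p ran from 0.0474 to 0.811 for Yars2, 0.234 to 0.811 for Rars2 and 0.169 to 0.998 for Farsb. The number higher at an unadjusted p under 0.05 was 1 when the FPKM minimum was 5, where fewer genes were tested, and 2 to 6 without single libraries. The number lower was 1 with upper-quartile factors and 1 with limma at either pseudocount, and 0 to 1 without single libraries (1 without WT replicate 1, WT replicate 3 or 5xFAD replicate 3). The cytosolic median log2 fold change was -0.52 at that minimum, 0.86 with limma on log2(FPKM + 0.1) and 0.014 to 0.50 without single libraries. The mitochondrial median was -0.19, from Lars2 alone, at that minimum, 1.86 with log2(FPKM + 0.1) and 0.52 to 1.40 without single libraries. The median of all tested genes itself moved from 0.11 to 0.44 with log2(FPKM + 0.1).

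The cytosolic gene was the higher in 11 to 13 of 15 pairs without single libraries. The log2 difference in the ratio of cytosolic to mitochondrial sums was -1.08 with counts, -0.72 with medians of log2(FPKM + 1), -2.15 to -1.55 without single libraries, and -1.63 without Vars, an alternative chosen after seeing the data. The causes were not tested.

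WT and 5xFAD samples share replicate numbers. Deviations from the group means correlated at 0.015, 0.022 and -0.017 between samples of the same number, and at -0.035 to 0.023 between different numbers. With few counts per gene, values this near 0 cannot decide whether the numbers pair the samples, and the labels do not say. With the replicate block the cytosolic median was 0.57, the mitochondrial median 1.37, that of all tested genes 0.29, and 0 members were called. Lone counts limit the mitochondrial genes: a library holding 0 counts allows up to 3.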
